A study of Mus musculus with 2 samples.

Results

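The TCF7 ChIP-seq peaks of 9 genes of the Wnt/β-catenin pathway are described here: Axin2, Lef1, Tcf7, Bcl9, Pygo2, Znrf3, Frat1, Frat2 and Cby1. Their peaks were chosen by the gene that the nearest-gene table assigns to each peak of the MACS2 list, so that 9 of 779 peaks, 1 for each of the 9 genes, were members. Because this rule selected on the presence of a peak, having a peak is not a result for these genes, and the values of the peaks are given as a description with no test. The list compares 1 ChIP library, made with a rabbit monoclonal antibody to TCF1/TCF7, with 1 library of sonicated input DNA that was not immunoprecipitated. Both came from cultured CD4/CD8 double-positive T-ALL cells labelled Lck-Akt2;Dlx5 transgenic, which the study calls Lck-Dlx5;Lck-MyrAkt2 and which the deposited files name as the line DP352. These cells carry the homeobox gene Dlx5 and a myristoylated, constitutively active Akt2, both under the Lck promoter, which drives expression in immature T cells. The input carries the same alleles, so that no library without the transgenes was compared, and both libraries represent the lymphoma line of 1 mouse. Neither library had a replicate, and the intervals below therefore cover counting error only. Of 12 T-cell genes looked up, 1, Cd8a, was the nearest gene of a peak, beside 2.64% of protein-coding genes. Peaks are not expression, however, and the cell type label was not checked by them.

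Wnt ligands bound to Frizzled and Lrp receptors stop a destruction complex of Axin, Apc and Gsk3 from marking β-catenin for degradation, and β-catenin then enters the nucleus. There it binds the HMG-box factors TCF7 (also called TCF1), LEF1 and their relatives, which hold the DNA, while BCL9 and PYGO proteins join it as coactivators. In the thymus, TCF7 and LEF1 are needed for the development of T cells, and several pathway components, among them Axin2, are known target genes that feed back on the signal.

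Sequences are shown for the 3 member peaks that lay away from gene starts. They were chosen because each held the letters bound by TCF/LEF factors within 100 bp of the summit, the position of the highest ChIP signal. All are from GRCm38 (mm10), plus strand, 5′ to 3′, and capitals mark TCF/LEF matches, defined as CTTTGNN with each N an A or a T, on either strand. The Lef1 sequence is chr3:131105926-131106126, the Tcf7 sequence chr11:52314376-52314543 and the Znrf3 sequence chr11:5411730-5411924.
Lef1: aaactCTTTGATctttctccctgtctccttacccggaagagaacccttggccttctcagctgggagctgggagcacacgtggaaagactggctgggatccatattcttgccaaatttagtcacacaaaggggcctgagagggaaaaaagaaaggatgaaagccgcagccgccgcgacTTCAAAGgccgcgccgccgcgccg
Tcf7: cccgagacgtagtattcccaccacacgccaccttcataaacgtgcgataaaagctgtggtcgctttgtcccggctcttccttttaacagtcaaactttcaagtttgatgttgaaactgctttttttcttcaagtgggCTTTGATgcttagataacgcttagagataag
Znrf3: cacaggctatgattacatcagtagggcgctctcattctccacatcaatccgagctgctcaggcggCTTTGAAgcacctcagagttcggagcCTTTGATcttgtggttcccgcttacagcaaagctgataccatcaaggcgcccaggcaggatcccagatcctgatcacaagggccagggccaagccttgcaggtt
In the Lef1 peak the first match reads forward and the second, in reverse, shows as its complement.

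In total, 4 of the 9 member peaks, those of Axin2, Lef1, Tcf7 and Znrf3, held a TCF/LEF match within 100 bp of the summit, beside 15.7% of all 779 peaks. The matches were 2 in Lef1, 2 in Znrf3 and 1 each in Axin2 and Tcf7. At least 2 matches in this window occurred in 21 peaks, or 2.7% of the list. The longer forms TCTTTGAA, TCTTTGAT, CTTTGATC or CTTTGATG, which overlap the motif above, were found in Lef1, Tcf7 and Znrf3 but not in Axin2, and in 5.26% of all peaks. The core CTTTG alone was found in the same 4 members, Axin2, Lef1, Tcf7 and Znrf3, and in 40.1% of all peaks. For comparison, the motif was present in 9.89% of the 475 peaks within 1000 bp of a protein-coding transcription start site (TSS), in 24.7% of the 304 other peaks and in 16.9% of 32851 RefSeq promoter windows of 300 bases (GRCm38.p6). In windows of the same width 2000 bp to the right of the summits the motif occurred at 2 members, Axin2 and Znrf3, and in 18.5% of peaks. To the left it occurred at 1 member, Tcf7, and in 15.4% of peaks.

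**Figure D1:**
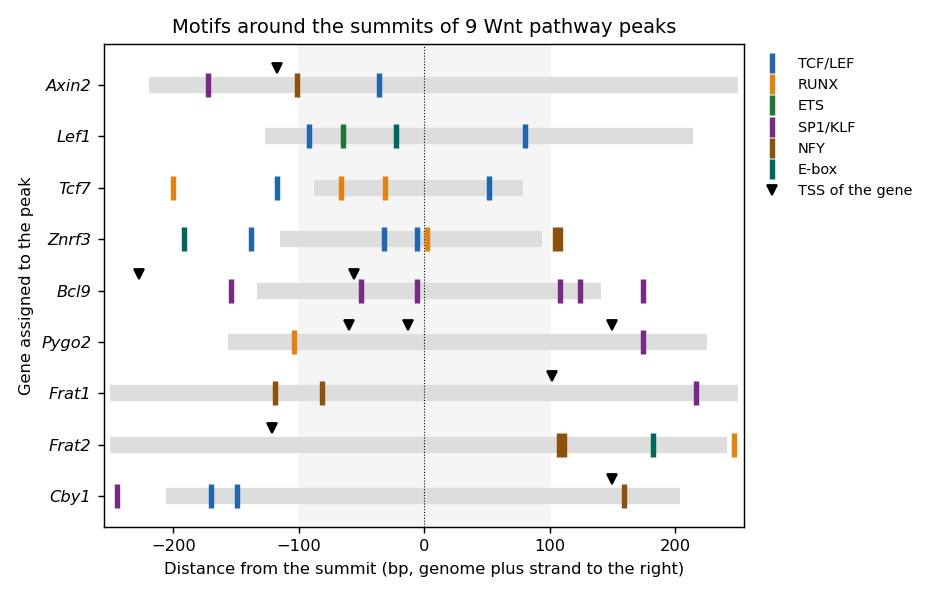
Motif matches (coloured ticks) within 250 bp of the summit (dotted line) of the 9 peaks; the x axis is the distance from the summit in bp, grey bars are the peaks, the pale band marks 100 bp on each side and triangles are annotated TSS of the gene. TCF/LEF matches lie in the band for Axin2, Lef1, Tcf7 and Znrf3. The Cby1 matches and a further match each of Tcf7 and Znrf3 lie outside it.

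The number of ChIP fragments covering the summit set the members apart into a high and a low set. Cby1 had 477 fragments (95% exact Poisson interval 435 to 522), Frat2 had 471 (429 to 516) and Frat1 had 455 (414 to 499). These 3 intervals overlap, so their order is not resolved at this depth. Bcl9 followed with 158 fragments (134 to 185), whose interval does not reach those of the high set. Axin2 had 123 (102 to 147), Pygo2 107 (87.7 to 129), Lef1 94 (76.0 to 115), Tcf7 80 (63.4 to 99.6) and Znrf3 78 (61.7 to 97.3). Among these 6 genes each interval overlaps the next, while that of Bcl9 lies above those of Pygo2, Lef1, Tcf7 and Znrf3, and that of Axin2 above those of Tcf7 and Znrf3. The median was 123 fragments over the members and 113 over all peaks, which ranged from 28 to 631.

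The input side differed less between members. MACS2 divides the ChIP pileup, after scaling it to the input library, by the larger of the input fragments at the summit and the averages of wider windows. The scaling gave 1.92 ChIP fragments for each input fragment. At 5 summits the input count itself was the background: 13 fragments at Pygo2, 11 at Tcf7, 11 at Cby1, 9 at Bcl9 and 8 at Frat1. At the other 4 summits a wider average was used, 6.2 at Znrf3, 5.88 at Frat2, 5.09 at Axin2 and 4.93 at Lef1, so the input count there was at most 6, 5, 5 and 4. The median background was 8.0 at the members and 6.0 over the list.

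**Figure D2:**
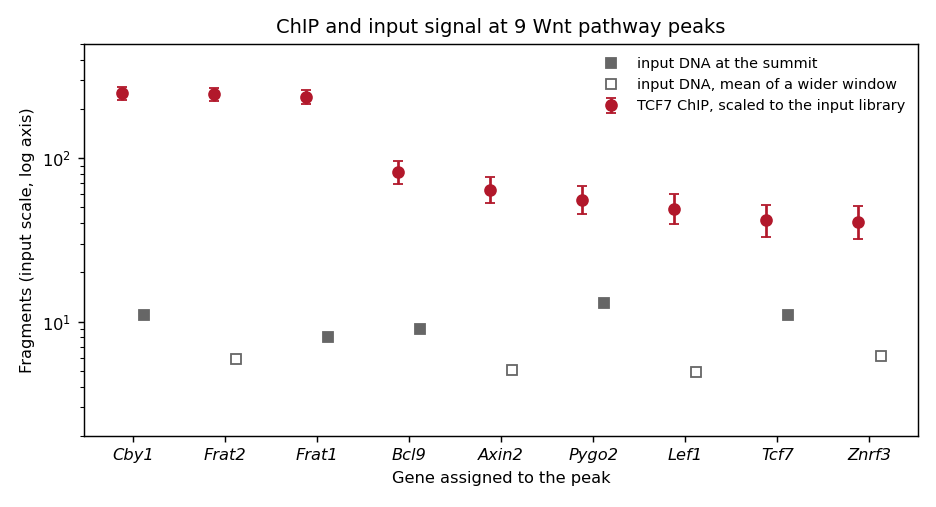
Scaled ChIP fragments at the summit (red, with 95% Poisson intervals) and local input background (grey) for the 9 peaks, on a log axis in fragments of the input library. Cby1, Frat2 and Frat1 stand above the other 6 genes, while the background stays between 4.93 and 13 fragments.

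Fold enrichment over this background was 10 or more at 4 members, Frat2, Frat1, Cby1 and Axin2, beside 45.1% of all peaks. The highest of these was Frat2 at 35.9-fold, rank 25 of 779, followed by Frat1 at 26.5-fold, rank 121, and Cby1 at 20.8-fold, rank 164. Below 10 were Znrf3 at 5.79-fold (rank 597), Pygo2 at 4.06-fold (rank 744) and Tcf7 at 3.56-fold (rank 764), with Lef1 and Bcl9 between them and Axin2. The member median of 8.45-fold lay next to the list median of 8.93-fold, and the list ran from 2.54 to 61.8-fold. The order by fold differs from the order by fragments. Cby1, with a background of 11, was first by fragments but below Frat2 and Frat1 by fold, and Bcl9, with 9, fell below Axin2 and Lef1. Pygo2, with 13, fell below Lef1 and Znrf3, and Tcf7, with 11, fell below Znrf3. The fold order is that of the point values. ChIP to input ratios overlap in their exact intervals for Frat1 (14.9 to 69.2) and Cby1 (12.5 to 45.7). They also overlap for Pygo2 (2.41 to 8.33) and Tcf7 (2.01 to 7.91), while Bcl9 (4.71 to 20.4) overlaps all of these. By these intervals only Frat1 and Cby1 stand apart, above Pygo2 and Tcf7. Frat2, Axin2, Lef1 and Znrf3 have no such interval, so their places by fold were not tested.

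**Figure D3:**
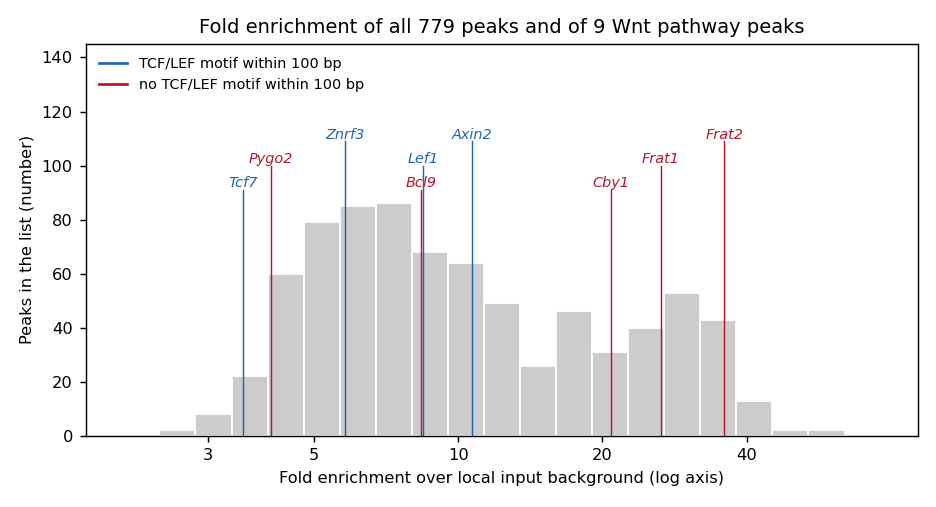
Fold enrichment of all 779 peaks (grey bars, number of peaks; log x axis) with the 9 members as vertical lines, blue where a TCF/LEF match lies within 100 bp of the summit and red where none does. The blue lines run from 3.56 to 10.7-fold and the red lines from 4.06 to 35.9-fold.

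Where the peaks lay also differed. The summit was within 1000 bp of an annotated TSS of the assigned gene at 6 members, Axin2, Bcl9, Pygo2, Frat1, Frat2 and Cby1, beside 57.3% of all peaks. Lef1, Tcf7 and Znrf3 had their summits 4.45, 31.4 and 30.1 kb from the nearest TSS of the gene. All 3 of these held a TCF/LEF match within 100 bp of the summit, and of the 6 at a gene start 1, Axin2, did. Over the whole list a match was also more frequent away from starts. It occurred in 24.7% of the 304 peaks farther than 1000 bp from a protein-coding TSS and in 9.89% of the 475 others.

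Axin2 (ENSMUSG00000000142) encodes a scaffold of the destruction complex and is widely used as a readout of Wnt signaling. Its peak, chr11:108920247-108921400, was 1154 bp long, rank 3 of 779 by length, and 1 of 6 peaks (0.77%) over 1000 bp. The summit lay 117 bp downstream of the TSS in the annotated untranslated region, and the peak covered further annotated starts 334 and 870 bp downstream of the summit. The −log10 of the q-value was 42.6. Over the whole peak there were 4 TCF/LEF matches, and no other peak of the list held 4 or more (1 of 779, 0.128%), which a long peak has more room to do. Their sites with 7 bases on each side are shown because they lie together at the start of the gene; capitals mark the match, all on the plus strand, at chr11:108920420-108920440, chr11:108920783-108920803, chr11:108921225-108921245 and chr11:108921245-108921265.
Axin2 match 1: ggctgcgCTTTGATaaggtcc
Axin2 match 2: ctcgcgcCTTTGAAgtgcaca
Axin2 match 3: cggcgcgCTTTGATgtgcggg
Axin2 match 4: ggcggcgCTTTGAAgttggca
The first match began 39 bp before the summit and the others 324, 766 and 786 bp after it. Of the 4, the last 3 were 10, 104 and 84 bp upstream of the nearest annotated Axin2 start. The next peak on the chromosome was 1120 kb away, at Cacng4.

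**Figure D4:**
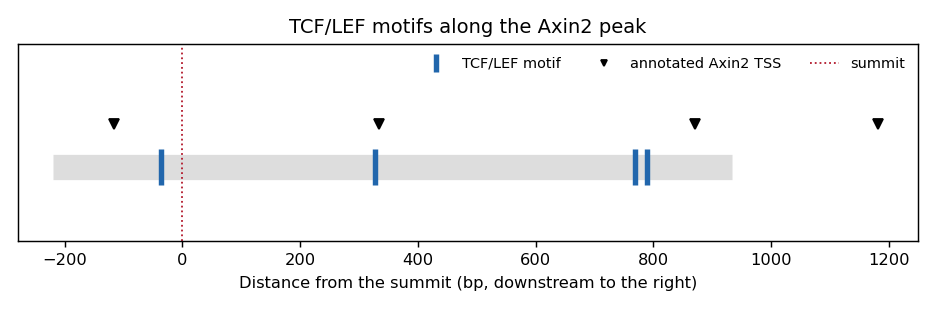
The Axin2 peak (grey bar) with 4 TCF/LEF matches (blue), annotated Axin2 TSS (triangles) and the summit (dotted line); the x axis is the distance from the summit in bp. A match lies 39 bp before the summit and the remaining matches lie 324 to 786 bp after it.

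Both TCF/LEF factor genes among the members had their peak at a distance from the start. Lef1 (ENSMUSG00000027985) encodes the relative of TCF7 that binds the same letters. Its peak, chr3:131105899-131106240, was 8.45-fold enriched with a −log10 q of 27.5, in intergenic DNA 4445 bp upstream of the GENCODE start and 4271 bp upstream of the RefSeq start. In the sequence above, the matches began 95 bp to the left and 77 bp to the right of the summit. Between them lay an ETS motif (CCGGAAG, 68 bp to the left, in 4.88% of all peaks) and an E-box (CACGTG, 25 bp to the left, in 3.34%). Repeats masked in the reference covered 36.3% of the bases within 100 bp of the Lef1 summit. In the same window no other member exceeded the 10.4% of Axin2.

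Tcf7 (ENSMUSG00000000782) encodes the factor that the antibody recognises. Its peak, chr11:52314376-52314543, was 168 bp long and lay 31450 bp upstream of the start, with Vdac1, a mitochondrial channel gene, as the other neighbour at 46.4 kb. The ChIP to input ratio at the summit was 3.8 (95% exact interval 2.01 to 7.91), counting the pair of libraries only. Inside the peak, a single TCF/LEF match began 49 bp to the right of the summit. Another began 120 bp to the left, outside the peak. Tcf7 also had 2 RUNX motifs (TGTGGT or TGCGGT, either strand), 69 and 34 bp to the left. The −log10 q of 7.89 was the lowest among the members and the only one below 10.

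Znrf3 (ENSMUSG00000041961) encodes a membrane ubiquitin ligase that removes Frizzled receptors. The peak, chr11:5411715-5411924, lay in an intron, 30090 bp upstream of the nearest annotated start of the gene and 33017 bp downstream of another. The −log10 q was 15.4. Its TCF/LEF matches began 35 and 9 bp to the left of the summit, and a RUNX motif began at the summit itself. A TCF/LEF match together with a RUNX motif was found in Tcf7 and Znrf3, in 33 of all peaks (4.24%) and in 9.54% of the peaks away from protein-coding starts. No RUNX motif was found within 100 bp of the summit in the other 7 members, and 18.5% of all peaks had one. The related gene Rnf43, which encodes a ligase of the same function, was not assigned a peak. Its start lay 3.56 kb from a 6.29-fold summit assigned to Supt4a, and Rnf43 is named here after its value was seen.

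The coactivator genes Bcl9 and Pygo2 had peaks at GC-rich starts. Bcl9 (ENSMUSG00000038256) encodes the adaptor between β-catenin and PYGO proteins. The peak assigned to it, chr3:97227458-97227732, was 8.35-fold enriched with a −log10 q of 44.7, and its ChIP to input ratio was 9.16 (4.71 to 20.4). The summit lay 56 bp upstream of an annotated start inside the gene. GC content within 100 bp of the Bcl9 summit was 82.6%, with 29 CpG dinucleotides, beside a median of 54.7% and 6 over all peaks. There was no TCF/LEF match, and 2 SP1/KLF motifs (GGGCGGG, in 13.9% of peaks) lay in this window. Part of it is shown to make the base composition visible, from chr3:97227531-97227651, minus strand, the strand of the gene, with the SP1/KLF motif in capitals.
Bcl9, inner start: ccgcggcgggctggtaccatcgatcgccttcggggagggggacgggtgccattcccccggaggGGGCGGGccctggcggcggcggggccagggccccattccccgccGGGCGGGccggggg

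A peak at another Bcl9 start was assigned elsewhere by the table. Its summit, in chr3:97297476-97298095, lay 24 bp downstream of the most upstream of 8 annotated Bcl9 starts, 70302 bp from the summit of the member peak. The table gave this peak to ENSMUSG00000097143, so it is not a member, and it is described as an exception to the rule. It had 268 fragments (237 to 302), against 158 (134 to 185) at the inner Bcl9 start, a background of 4.29 and a fold enrichment of 26.6, rank 119. GC content was 50.7%. Unlike the inner start, it held a TCF/LEF match, beginning 16 bp from the summit, printed from chr3:97297870-97297890, minus strand, with the match in capitals.
Bcl9, upstream start: taagttgCTTTGATgttgtcc
By the nearest protein-coding TSS, both of these peaks belong to Bcl9, and the intervals of their fragments do not overlap.

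Pygo2 (ENSMUSG00000047824) encodes a PHD-finger protein of the β-catenin complex. The peak, chr3:89430118-89430499, had its summit 13 bp downstream of an annotated start, in the untranslated region. Its ChIP to input ratio was 4.3 (2.41 to 8.33), and the −log10 q was 13.7. GC content was 72.6% with 22 CpG dinucleotides, and none of the motifs searched lay within 100 bp of the summit. No match says only that these letters are not in this window. Pmvk, of the mevalonate pathway, held the nearest other peak at 28.9 kb, which was 25.4-fold enriched.

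Frat1 and Frat2, which encode proteins that bind Gsk3 and hinder the phosphorylation of β-catenin, had strong peaks 18385 bp apart. Another peak within 20 kb occurred for 69 of the 779 peaks (8.86%). The Frat1 (ENSMUSG00000067199) peak, chr19:41829554-41830144, had its summit 102 bp upstream of the start, a ChIP to input ratio of 29.7 (14.9 to 69.2) and a −log10 q of 247. The Frat2 (ENSMUSG00000047604) peak, chr19:41847934-41848494, had its summit 121 bp upstream of the start and a −log10 q of 290. Neither held a TCF/LEF match in the whole peak. Frat1 held an NFY motif (ACCAAT or GCCAAT) 84 bp to the left of its summit, as did 11.2% of all peaks within 100 bp. Beyond that distance but inside the peaks, Frat2 held NFY motifs 105 and 109 bp to the right of its summit. Frat1 held another 121 bp to the left.

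The Frat1 and Frat2 peaks also share sequence. An identical run of 75 bases crosses both starts, from 13 bp before to 61 bp after the Frat1 start and from 17 bp before to 57 bp after that of Frat2. Reads that fall wholly within it cannot be assigned to 1 of the pair, and the read length is not given in the sources used here. In a stretch of 43 aligned bases upstream of the starts, which includes the first 13 bases of that run, 39 (90.7%) are identical, and outside the run 26 of 30 are. It is shown because it lies between each start and its summit; capitals mark identical bases. Frat1 is chr19:41829927-41829969, plus strand, and Frat2 chr19:41848137-41848179, minus strand, each the strand of the gene.
Frat1: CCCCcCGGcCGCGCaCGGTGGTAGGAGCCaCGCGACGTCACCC
Frat2: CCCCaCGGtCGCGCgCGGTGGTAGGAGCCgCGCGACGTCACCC
Both summits lie outside the identical run.

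Cby1 (ENSMUSG00000022428) encodes Chibby, a small protein that competes with TCF/LEF factors for β-catenin. Its peak, chr15:79658843-79659253, covered 2 starts that point away from each other, and the summit lay between them, 150 bp upstream of the Cby1 start and 93 bp upstream of that of Fam227a. The peak had a ChIP to input ratio of 22.6 (12.5 to 45.7) and a −log10 q of 232. By the nearest protein-coding TSS it belongs to Fam227a rather than Cby1, the only member for which the assigned gene changes in this way. No motif searched lay within 100 bp of the summit. There were 2 TCF/LEF matches 173 and 152 bp to the left, inside the peak. With these, 5 of the 9 members held a match anywhere in the peak, beside 20.3% of all peaks. The median length was 382 bp over the members and 276 bp over all peaks. A longer peak has more room for a match.

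The 4 members with a TCF/LEF match within 100 bp were not the most enriched ones. They had 78 to 123 fragments and 3.56 to 10.7-fold enrichment, and the 5 members without had 107 to 477 fragments and 4.06 to 35.9-fold enrichment. The ranges overlap in both measures. Over the whole list, the 122 peaks with a match had a median of 6.3-fold and the 657 without had 9.76-fold. GC content ran from 45.3% to 63.7% in the members with a match and from 56.7% to 82.6% in those without, with list medians of 47.5% and 56.2%. Position moved with these values, since 38.5% of the peaks with a match and 65.1% of those without were within 1000 bp of a protein-coding TSS, and its part in the difference was not tested.

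**Figure D5:**
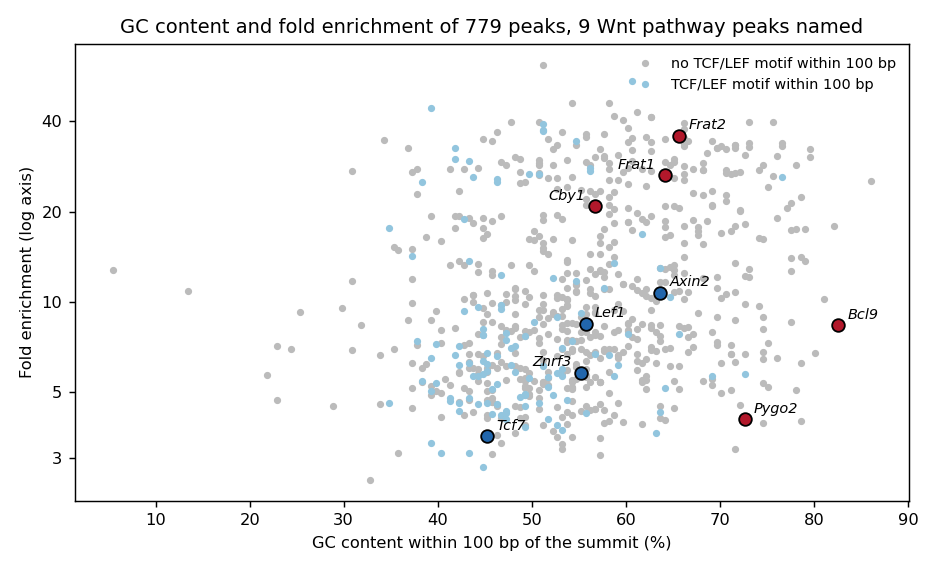
GC content within 100 bp of the summit (x axis, %) and fold enrichment (log y axis) of 779 peaks, blue with and grey or red without a TCF/LEF match; large named points are the 9 members. Bcl9 and Pygo2 combine GC contents of 82.6% and 72.6% with 8.35-fold and 4.06-fold enrichment, while Frat1, Frat2 and Cby1 lie above 20-fold.

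The peaks next to the members in fold order place them in the list. Sla and Slc4a8 flanked Tcf7 (3.58 and 3.55-fold), Trim27 and A830005F24Rik flanked Znrf3 (5.8 and 5.78-fold), and Rpl13a and 9030204H09Rik flanked Pygo2 (4.08 and 4.06-fold). Higher in the list, Kdm6b and Akirin1 flanked Frat1 (26.6 and 26.3-fold), and Bccip and Nmral1 flanked Frat2 (36.2 and 35.5-fold). Lef1 stood between Rpl36a-ps3 and Cdc42, Bcl9 between Rtkn2 and Hdac7, Axin2 between Exoc7 and Pnpla6, and Cby1 between Arid3c and 2310039H08Rik.

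The other genes of the pathway were looked up by role. In a list of 87 Wnt genes ordered by role, which holds all 9 members, 10 were the nearest gene of a peak, beside 2.64% of protein-coding genes. Since the members were selected on having a peak, this count and the counts by role below describe the list and are no result about the pathway. Leaving out members selected on having a peak lowers the share among the rest, so the next value is no rate for the pathway. Of the 78 genes that are not members, 1 (1.28%) was the nearest gene of a peak. This was Tbl1xr1, which encodes an exchange factor between corepressors and coactivators. The summit of its peak lay 406 kb from the nearest start of the gene, with 8.49-fold enrichment. No peak was assigned to the 13 genes for ligands and their secretion, the 5 secreted antagonists, the 17 receptors, the 2 β-catenin genes or the 5 target genes, Myc and Ccnd1 among them. The genes with a peak belonged to receptor turnover (1 of 2), dishevelled, casein kinases and Gsk3-binding proteins (2 of 11), the destruction complex (1 of 11), the TCF/LEF factors (2 of 4), the coactivators (3 of 9, Tbl1xr1 included) and the nuclear antagonists (1 of 8). A start lay within 100 kb of a summit for 18 of the 87 genes, and the median distance to the nearest summit was 511 kb. Neither value is given for all protein-coding genes, so both describe the list only, with the 9 members included. Regions under the peak threshold have no value, so a gene with no peak is not shown to be unbound.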

How the data were processed

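The data were 1 TCF7 ChIP library and 1 input DNA library from T-ALL cells of the double transgenic genotype, assigned to their groups by title. Per the paper and the labels, Bowtie2 alignment to mm10 was followed by MACS2 peak calling of ChIP over input in Chipster. Of these tools, version and settings, and the read length, were not given in the sources used here. Deposited pileup values are a coverage signal at the summit, scaled by the authors to the input library. The deposited fold enrichment is the MACS2 ratio of pileup to local input background, each with 1 added, and the authors gave p- and q-values as −log10. In the deposited table that pairs peaks with genes, headings and contents are shifted against each other, and it was read by content.

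Pileups were divided by their common step of 0.522 to give ChIP fragments, which came out whole within 0.00613. The local background was recovered as (pileup + 1) / fold − 1. The Poisson p recomputed from it matched the deposited −log10 p within 0.05 at all 779 peaks. It was a whole number, taken as the input fragments at the summit, at 418 of them (within 0.01). Fragments have 95% exact Poisson intervals and ratios of ChIP to input fragments, on the input scale, have exact binomial intervals. Both cover counting error only, and total read numbers were not used here. TSS came from GENCODE vM21 (21951 protein-coding genes), where 765 gene identifiers matched and 14 did not. Sequences came from GRCm38.p6, and RefSeq promoter windows were found for 8 of 9 members, Znrf3 not among them. Motifs were searched on both strands, a match counting where it lay wholly within the window.

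The members and gene lists were chosen with earlier results of these data known. Named genes are the members, list genes that are nearest to a peak or start within 1000 bp of a summit, genes on either side of a member summit and the neighbours in fold order. Cd8a, Pmvk, Cacng4, Supt4a, Rnf43, Myc and Ccnd1 are named outside that rule, after their values were seen. Tle3 and Sp5 are also outside it, named because an alternative gene assignment added them. Alternatives were other distances, fold and q thresholds, motif windows, motif forms and gene assignments, and, added after seeing the data, RefSeq starts. Python 3.11.15, numpy 2.4.6, pandas 2.3.3, scipy 1.17.1, biopython 1.88, samtools 1.23.1 and matplotlib 3.10.9 were used. The recovery of fragments, background and motifs was tested on simulated data.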

Additional observations from a re-analysis of the deposited data

How the results depend on the processing

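Members at or above the fold threshold numbered 4 at 10-fold and 7 at 5-fold. A TCF/LEF match was found at 4 members within 100 bp of the summit and at 2, Axin2 and Znrf3, within 50 bp. Restricting the list to 10-fold left 4 of the 9 members and 4 of the 10 Wnt list genes, and requiring a TSS within 1000 bp left 6 Wnt list genes. The number of members at a gene start was 6 at 500 bp, for the whole peak, for basic transcripts and for RefSeq starts (added after seeing the data), and 7 at 5000 bp. The shares of all peaks at 5-fold, within 50 bp and at 5000 bp are not given here. These changed counts therefore describe the members only. A −log10 q of at least 10 removed Tcf7, and the nearest protein-coding TSS removed Cby1 and added Tle3 and Sp5 to the Wnt list, at 139 and 49.1 kb. No paired analysis was possible because there was 1 library a group, and for the same reason no replicate could be left out. At 78 to 123 fragments, neighbours in the order of the weaker members are not resolved.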
